A study of Mus musculus with 8 samples.

Results

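Recipient cells from pups whose dams were depleted of dendritic cells (DC) before intrauterine transplantation (IUT) with paternal cells (DC-depleted pIUT) were compared with recipient cells from pups of saline-treated dams (DC control pIUT). Each group was 1 pooled RNA library, so that 2 of the 8 libraries of the study were used, together with the T-cell receptor (TCR) and B-cell receptor (BCR) tables of the same libraries. The comparison asked how recipient immune cells differed 1 week after birth when the dam had lacked DC around the time of transplantation.

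All pups in both groups were F1 hybrids of BALB/c males and C57BL/6 dams that carried CD11c-DTR, a transgene in which the CD11c (*Itgax*) promoter drives the diphtheria toxin receptor. DC-depleted dams received 5 ng/g diphtheria toxin (DT) intraperitoneally on E13, and DC control dams received saline. In both groups every fetus was injected in the liver on E14 with 5000000 bone marrow mononuclear cells from BALB/c mice. At 1 week of age, whole-body harvests that included the lymphoid organs were sorted by magnetic beads and then by flow cytometry on H2K-d, the class I molecule of the BALB/c father. BALB/c donor cells carry the same marker, and in these counts a remaining donor cell cannot be told apart from a recipient cell. Cells of several pups were pooled in each library, so a difference is between 2 libraries, has no replicate check and carries no p-value. Fewer cells of a type and less RNA per cell cannot be told apart in such bulk libraries.

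As background, mouse blood cell formation moves from the fetal liver to the bone marrow and spleen around birth, and the first waves of T cells leave the thymus before and just after birth. Neutrophils form in stages: promyelocytes make the primary granule proteins, and later stages make the secondary and tertiary granule proteins. Developing lymphocytes join V, D and J segments with the RAG recombinase, and terminal deoxynucleotidyl transferase (TdT, the product of *Dntt*) adds bases that are in no segment. TdT is scarce in the fetus, so that receptors formed before birth hold few added bases.

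The libraries held 40011434 (DC control) and 41408900 (DC-depleted) estimated counts. At least 10 counts were found for 14670 genes in DC control and for 16231 genes in DC-depleted pIUT. With normalization by TMM, which assumes that most genes do not differ, 17219 genes had at least 10 counts in at least 1 of the libraries. Of these, 4364 (25.3%) were at least 2-fold higher in DC-depleted pIUT, 2416 (14%) were at least 2-fold lower, and 39.4% passed 2-fold either way. The median log2 fold change of all tested genes was 0.10, and scaling by library size alone moved it to 0.33. A direction given below for a gene or list within this shift of 0 depends on the scaling. At least 100 counts in DC-depleted and 0 in DC control were found for 313 genes, and the reverse for 23 genes. The share of counts from ribosomal protein genes was 3.33% in DC control and 3.60% in DC-depleted pIUT, and that from mitochondrial genes 0.166% and 0.109%.

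**Figure D1:**
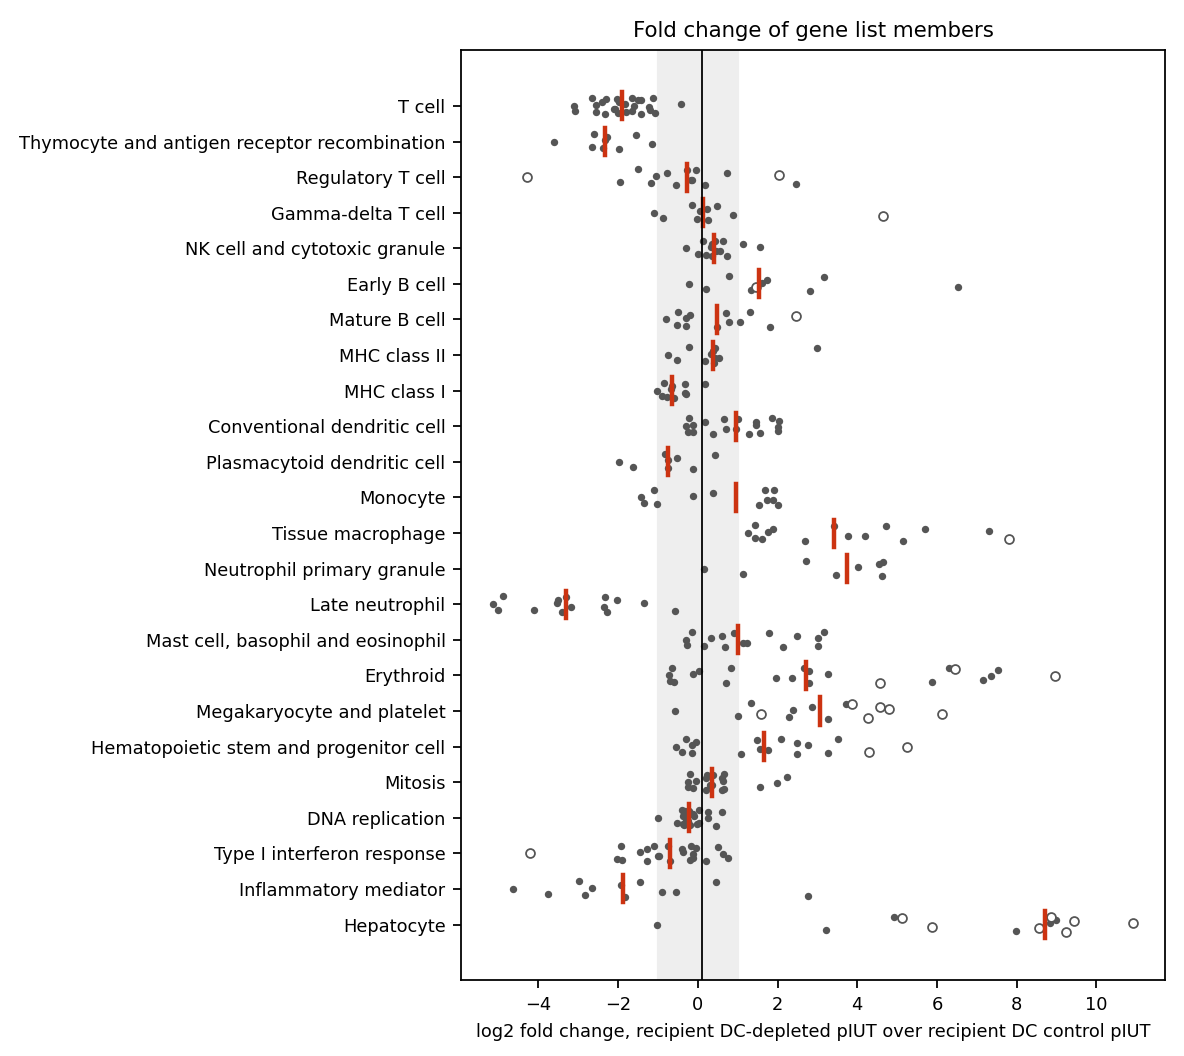
Log2 fold change (DC-depleted over DC control pIUT, recipient cells) for the tested members of 24 gene lists. Points are genes, open points are bounds against a library with 3 counts or fewer, red bars are list medians, the line marks the median of all tested genes and the grey band spans 2-fold either way. T-cell, thymocyte and late neutrophil lists lie to the left, and tissue macrophage, primary granule, erythroid and megakaryocyte lists to the right.

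The target of the depletion was measured first. *Itgax* (CD11c; chr7:127728668-127749829, GRCm39) had 367 counts in DC control and 722 in DC-depleted recipient cells, a ratio of 1.62. The toxin was given to the dam and the pups were sampled at 1 week, so this value describes recipient cells and not the depletion in the dam. *Xcr1* and *Clec9a*, which mark conventional DC of type 1, had 163 and 155 counts in DC control against 259 and 158 in DC-depleted pIUT. *Zbtb46*, the transcription factor of conventional DC, had 393 and 436 counts. Of 19 conventional DC genes, 8 were at least 2-fold higher (against 25.3% of all tested genes) and 0 at least 2-fold lower, and the median log2 fold change was 0.95. *Ccl17* (30 to 150 counts), *Wdfy4* (343 to 1674) and *Cd209a* (78 to 380) were the highest, while *Ccr7* and *Clec9a* stood at log2 fold changes of -0.30 and -0.25. Genes used by type 1 DC lay on both sides, with *Clec9a* and *Tlr3* (-0.13) below 0, and *Xcr1* (0.39), *Batf3* (1.00) and *Wdfy4* (2.01) above it. Several of them, such as *Flt3* (451 and 1619 counts), are also made by progenitors. Of 8 plasmacytoid DC genes, 2 were at least 2-fold lower (against 14% of all tested genes). These were *Ccr9* and *Ly6d*, both also made by thymocytes or lymphocytes. *Siglech*, the defining receptor, stood at -0.53.

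Genes of T cells stood lower in the DC-depleted library. Of 26 genes tested, 25 were at least 2-fold lower (14% of all tested genes were) and 0 were higher, with a median log2 fold change of -1.90. *Cd8a* (chr6:71350411-71356157), the alpha chain of the CD8 coreceptor, had 12116 counts in DC control and 1718 in DC-depleted pIUT, 8.56-fold lower. Its partner *Cd8b1* had 10201 and 1458 counts. *Cd4* had 2320 and 555 counts and was 5.07-fold lower. *Cd3e*, a signalling chain of the TCR complex, had 17251 and 4846 counts and was 4.32-fold lower. The coreceptor genes *Cd8a* and *Cd4* thus both differed more than *Cd3e*. *Tcf7*, a transcription factor of early and naive T cells, stood at -2.55, the kinase *Lck* at -1.97, the constant region gene *Trac* at -1.61 and *Bcl11b*, which fixes T-cell identity, at -1.20. *Ubash3a*, an inhibitor of TCR signalling, was the member that did not pass 2-fold (-0.43).

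Genes of thymocytes and of receptor recombination differed in the same direction. All 9 that were tested were at least 2-fold lower, with a median of -2.34. *Dntt* (chr19:41017714-41047964) had 4527 counts in DC control and 453 in DC-depleted pIUT, 12.1-fold lower. *Rag1*, a subunit of the recombinase, had 2166 and 431 counts, and *Rag2*, the other subunit, stood at -1.56. *Ptcra*, the surrogate alpha chain of the pre-TCR, had 3223 and 773 counts. *Satb1*, a transcription factor of double positive thymocytes, stood at -2.66.

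The T-cell level of DC control pIUT was the highest of the 4 recipient libraries. Summed over the list, T-cell genes reached 8374 CPM (counts scaled to the normalized library size, on the scale of 1000000) in DC control pIUT, 2055 in DC-depleted pIUT, 1157 in DC control mIUT (maternal donor cells, saline) and 1563 in uninjected pups. *Cd8a* had 896 counts in DC control mIUT and 2487 in uninjected pups. By the list sum, DC-depleted pIUT was thus low beside DC control pIUT only. By member, DC-depleted pIUT lay above both other recipient libraries for 13 of the 26 genes. For *Cd8a* its count was below that of uninjected pups. For the thymocyte list the sums were 1073, 198, 179 and 106 CPM in the same order. The uninjected library, which may hold pups of DT-treated dams, is a library and not a replicate of either group.

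Regulatory T-cell genes differed in level by less than the T-cell list, and went both ways. *Foxp3*, which specifies regulatory T cells, had 185 and 203 counts (log2 fold change -0.15, 95% counting interval -0.44 to 0.15), and its sign changed when libraries were scaled by size alone. *Ikzf2*, which encodes Helios, had 320 counts in both libraries. *Il2ra* stood at -0.54 and *Ctla4*, an inhibitory receptor, at -1.04. Of 15 regulatory T-cell genes, 2 were at least 2-fold higher and 5 at least 2-fold lower (against 25.3% and 14% of all tested genes). The median was -0.28, or -0.41 over the 12 that reached 10 counts in each library. *Il10*, an anti-inflammatory cytokine, had 48 counts in DC control and 0 in DC-depleted pIUT, at least 19.4-fold lower against a floor of 3 counts. *Cd40lg*, the T-cell ligand of CD40, had 33 and 0 counts. Of the 15 T-cell activation genes, 2 were at least 2-fold higher and 3 lower, and *Ifng* (684 and 507 counts) stood at -0.71.

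Genes of gamma-delta T cells went both ways, and most of those of natural killer (NK) cells were higher by less than 2-fold. *Trgc1*, a constant region of the gamma chain, had 6158 counts in DC control and 7776 in DC-depleted pIUT, a ratio of 1.04. *Trgc2* had 2769 and 3291 counts. *Trdc*, the constant region of the delta chain, was lower, with 6871 and 4551 counts (-0.87), and *Sox13*, a transcription factor of these cells, stood at -1.11. *Il17a* (190 and 277 counts) and *Il17f* (229 and 513 counts) encode cytokines that neonatal gamma-delta T cells are known to make. *Il23r*, the receptor that sustains them, had 0 counts in DC control and 91 in DC-depleted pIUT, at least 25.0-fold higher. The median of the 10 genes was 0.14, beside 0.10 for all tested genes. Among 14 NK and cytotoxic granule genes, 12 were higher (54.7% of all tested genes were) and 13 with scaling by library size alone, 2 of the 12 by at least 2-fold, and 0 were at least 2-fold lower, with a median of 0.40. *Ncr1*, which encodes the NK receptor NKp46, had 2184 and 3606 counts, while *Gzmb* and *Prf1*, which encode granzyme B and perforin, stood at 0.36 and -0.31. *Eomes* had 30 and 107 counts.

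B-cell genes separated by stage. Of 10 early B-cell genes, 7 were at least 2-fold higher and 0 lower, with a median of 1.67, or 1.53 with *Pax5* (0 and 10 counts) at its bound. *Igll1* (chr16:16678535-16681849), the surrogate light chain of pre-B cells, had 17 counts in DC control and 1917 in DC-depleted pIUT, 92.9-fold higher. *Vpreb3* had 92 and 996 counts, and *Ebf1*, a transcription factor that commits cells to the B lineage, 43 and 365. Of 13 mature B-cell genes, 4 were at least 2-fold higher (against 25.3% of all tested genes) and 0 were at least 2-fold lower. Their median was 0.49. *Ms4a1* (CD20) had 2779 and 1948 counts (-0.79), and the immunoglobulin genes *Ighm* and *Ighd* stood at -0.19 and -0.29. Low counts lay behind part of the plasma cell list, in which 6 of 8 genes were at least 2-fold higher. *Prdm1* had 0 and 91 counts and *Jchain* 21 and 142, while *Xbp1* (6993 and 11052 counts) stood at 0.38. The uninjected library had 1043 CPM summed over the early B-cell list, against 148 in DC control and 298 in DC-depleted pIUT, so that this difference was small beside the range of the recipient libraries.

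Neutrophil genes split by granule stage. Of 8 primary granule genes, 7 were at least 2-fold higher in DC-depleted pIUT and 0 lower, with a median of 3.74. *Mpo* (chr11:87684407-87695239), which encodes myeloperoxidase, had 18772 counts in DC control and 573302 in DC-depleted pIUT, 25.2-fold higher. *Elane*, the neutrophil elastase gene, had 3487 and 98984 counts and was 23.4-fold higher. *Prtn3*, *Ctsg* and *Ms4a3* stood at 4.01, 4.62 and 3.46. The genes of later stages lay on the opposite side. Of 15 late neutrophil genes, 14 were at least 2-fold lower, with a median of -3.30. *Ly6g* (chr15:75027089-75030982), a surface protein of mature neutrophils, had 11707 and 480 counts and was 29.6-fold lower. *Retnlg* had 69126 and 2382 counts, 35.2-fold lower. *Ltf*, which encodes the secondary granule protein lactoferrin, stood at -3.52, *Mmp8* and *Mmp9* of the tertiary granules at -4.10 and -5.02, and *Cxcr2*, the receptor that releases neutrophils from the marrow, at -3.41. *Csf3r*, the receptor for the growth factor G-CSF, did not pass 2-fold (-0.58). DC-depleted pIUT had the highest summed primary granule level of the 4 recipient libraries (14394 CPM, against 713 in DC control pIUT, 1751 in DC control mIUT and 6433 in uninjected pups). It had the lowest summed late neutrophil level (8275 CPM, against 53994, 319677 and 13033 in the same order). The samples are labelled as mononuclear cells, and neutrophil transcripts were abundant in both.

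Macrophage genes were higher without exception in the list of 15, and all 15 passed 2-fold, with a median of 3.42, or 2.29 over the 12 that reached 10 counts in each library. *Clec4f* (chr6:83621524-83633169), a receptor of liver Kupffer cells, had 98 counts in DC control and 6211 in DC-depleted pIUT, 52.2-fold higher. *Timd4*, a phagocytic receptor of resident macrophages, had 0 and 822 counts, at least 226-fold higher. *Vsig4* (8 and 1553 counts) and *Cd163* (7 and 307) were also close to 0 in DC control. *Spic*, the transcription factor of macrophages that recycle iron, had 47 and 785 counts. *Adgre1*, which encodes F4/80, and the complement gene *C1qa* differed less, with 1.44 and 1.60. The sum of the list was 438 CPM in DC control pIUT, 1582 in DC-depleted pIUT, 1028 in DC control mIUT and 4308 in uninjected pups. The monocyte list went both ways. *Csf1r* (4738 and 18343 counts), *Ccr2* (1807 and 7315) and *Fcgr1* (418 and 2049) were at least 2-fold higher with 3 others of the 12. At least 2-fold lower were 4, among them *Lyz2* and *Cd14*, which neutrophils also express, and *Nr4a1*. Over all tested genes these shares were 25.3% and 14%. *Ly6c2*, the marker of inflammatory monocytes, had 17137 and 18965 counts.

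**Figure D2:**
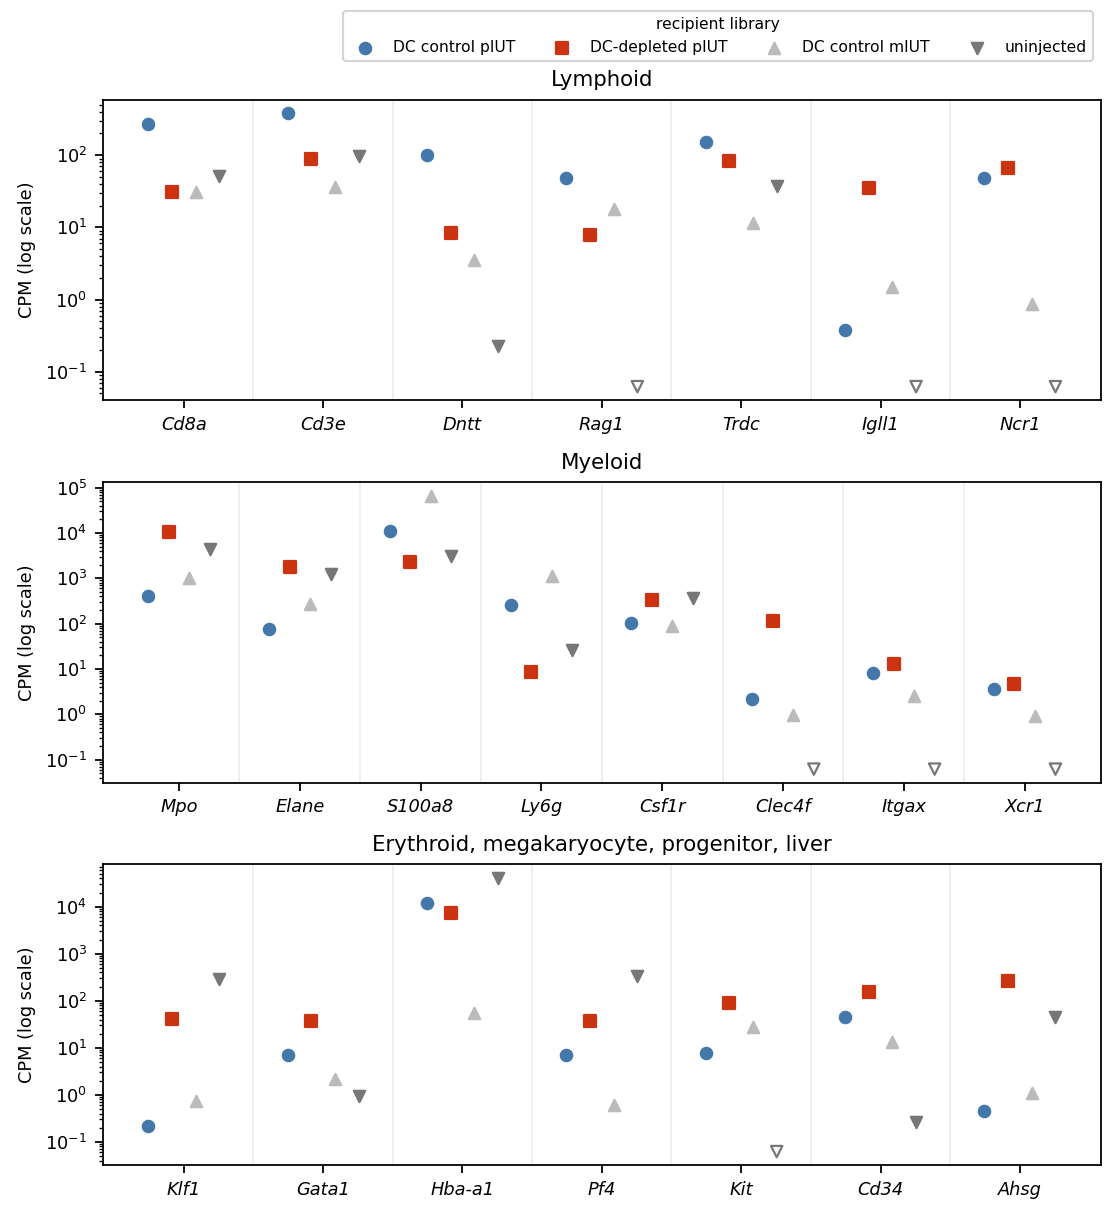
CPM on a log scale of 22 marker genes in the 4 recipient libraries, 1 library per symbol (DC control pIUT, DC-depleted pIUT, DC control mIUT and uninjected). Open symbols mark 3 counts or fewer and are drawn at the value of 3 counts. *Cd8a* and *Dntt* were highest in DC control pIUT, and *Mpo*, *Clec4f*, *Kit* and *Ahsg* were highest in DC-depleted pIUT.

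Erythroid precursor genes were higher in DC-depleted pIUT while globin genes were not. Of 22 erythroid genes, 14 were at least 2-fold higher (against 25.3% of all tested genes) and 0 at least 2-fold lower. The median was 2.72, or 2.16 over the 18 that reached 10 counts in each library. *Klf1* (chr8:85628557-85631934), the transcription factor that activates adult globin, had 10 counts in DC control and 2270 in DC-depleted pIUT, 187-fold higher. *Gata1* had 324 and 2010 counts and *Epor*, the erythropoietin receptor, 81 and 940. *Rhag*, a membrane protein of red cells, had 0 and 1829 counts, at least 502-fold higher. *Hba-a1* (544702 and 402402 counts), *Hbb-bs* (-0.60) and *Alas2* (-0.66), which are made to the end of red cell maturation, were lower by less than 2-fold. Globin genes together held 4.51% of all counts in DC control and 3.41% in DC-depleted pIUT, against 12.4% in uninjected pups and 0.0144% in DC control mIUT. Megakaryocyte genes were higher for 13 of 14 members, all 13 by at least 2-fold. *Pf4*, a chemokine of platelets, had 321 counts in DC control and 2032 in DC-depleted pIUT. Of the 14 genes, 6 were at 3 counts or fewer in DC control pIUT, among them *Ppbp* (0 and 87 counts). With these at their bounds the median was 3.06, and over the 8 that reached 10 counts in each library it was 2.34. The list sum was 232 CPM in DC control pIUT, 282 in DC-depleted pIUT, 749 in DC control mIUT and 587 in uninjected pups.

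Genes of hematopoietic stem and progenitor cells were higher for 12 of 18 members, all 12 by at least 2-fold. None was at least 2-fold lower, and the median was 1.67. The list sum was 632 CPM in DC control pIUT, 946 in DC-depleted pIUT, 1546 in DC control mIUT and 824 in uninjected pups. *Kit* (chr5:75735576-75817404), the stem cell factor receptor, had 356 counts in DC control and 4987 in DC-depleted pIUT, 11.5-fold higher. *Cd34* had 2054 and 8507 counts, *Meis1* 54 and 445, and *Mecom* 0 and 71. *Myb* (-0.15), *Spi1* (-0.54) and *Runx1* (-0.41) are used by many blood lineages and did not pass 2-fold. Mast cell genes were higher as well. *Cpa3*, a mast cell carboxypeptidase, had 3543 and 18924 counts, *Tpsb2*, a tryptase, 1804 and 19569, and *Cma1*, a chymase, 1478 and 14509. The eosinophil granule genes *Prg2* and *Epx* stood at -0.16 and 0.16, so that 8 of 16 genes in this list passed 2-fold upwards and 0 downwards.

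Genes of mitosis had a median of 0.34, and those of DNA replication had a median of -0.22 that became 0.01 when libraries were scaled by size alone. *Mki67* had 90 and 520 counts and was 4.76-fold higher, while *Top2a* and *Pcna* stood at 0.30 and -0.36. Of 19 mitosis genes 3 were at least 2-fold higher, against 25.3% of all tested genes. Of 21 replication genes 1 was at least 2-fold lower, against 14%.

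Most inflammatory mediators were lower in DC-depleted pIUT, and interferon response genes differed less. Of 12 inflammatory mediators, 8 were at least 2-fold lower and 1 higher, with a median of -1.88. *Cxcl2*, a chemokine that attracts neutrophils, had 6811 counts in DC control and 331 in DC-depleted pIUT, 25.0-fold lower. *Tnf* had 2465 and 219 counts and was 13.7-fold lower. *Il1b* had 2917 and 493 counts, and *Nfkbia*, an inhibitor of NF-kB that the pathway itself induces, stood at -2.98. *Il18* went the other way (157 and 1286 counts), as did *Il1a* within 2-fold (0.45). Neutrophils are a known source of *Cxcl2* and *Il1b*, and the late neutrophil list was lower in the same library; its part in these values was not tested. Of 23 type I interferon response genes, 9 were at least 2-fold lower and 0 at least 2-fold higher, with a median of -0.70 that stayed within 2-fold. Above 0 were 4 of the 23, and 9 with scaling by library size alone. *Ifit1* (647 and 209 counts) and *Isg15* (1309 and 656) were among those past 2-fold, and *Mx1* (64 and 71 counts) stood at -0.13. Immediate early genes, which respond to handling within minutes, went both ways, from *Junb* (-1.72) and *Dusp2* (-1.56) to *Myc* (1.36) and *Egr2* (85 and 292 counts), and the median was -0.39.

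Few antigen presentation genes passed 2-fold. Of 11 class II genes 1 passed 2-fold, *Ciita*, the master regulator of class II (19 and 185 counts), while *H2-Ab1* (16638 and 26939 counts) and *Cd74* (21255 and 32650 counts) stood at 0.42 and 0.34. Of 11 class I genes, 10 were lower (45.3% of all tested genes were), 1 of them by at least 2-fold (*Tap1*, a peptide transporter, -1.02), and the median was -0.64. *H2-K1* stood at -0.32 and *B2m*, the light chain of class I, at -0.33. Of the homing receptors, *Ccr9*, which guides cells to the thymus and gut, stood at -1.98 and *Cxcr4* at -1.09. *Cxcr3* (558 and 1782 counts) and *Itga4* (382 and 956 counts) were at least 2-fold higher.

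Many transcripts of cells outside the blood were higher in DC-depleted pIUT, mostly from counts near 0 in DC control. Of 14 hepatocyte genes 13 were at least 2-fold higher, with a median of 8.71 where genes at 3 counts or fewer were set to their bounds, as 7 were in DC control. The 5 that reached 10 counts in each library had a median of 4.92. *Alb* (albumin; chr5:90608647-90624696) had 0 counts in DC control and 7047 in DC-depleted pIUT, at least 1935-fold higher, and *Ahsg* had 20 and 14418 counts. *Fga* (0 and 2550 counts), *Rbp4* (0 and 3609) and *Cyp2e1* (0 and 1791) were likewise among the 15 highest genes of the whole table. *Sftpc*, the surfactant gene of the lung, had 0 and 2683 counts. *Alb* had 14 counts in DC control mIUT and 953 in uninjected pups, and *Sftpc* had 0 counts in both. Members of any list could enter the comparison through 1 library alone. In the hepatocyte list and the next lists some entered through DC-depleted pIUT, where they were high, so the counts of these lists are a description. Of 9 skeletal muscle genes, 8 were tested and 8 were at least 2-fold higher (*Acta1*, 113 and 9582 counts), with 4 at 3 counts or fewer in DC control. Of 10 fibroblast genes, 9 were tested and 7 were at least 2-fold higher (*Col3a1*, 0 and 616 counts), with 5 at 3 counts or fewer. Of 11 endothelial genes, 10 were tested and 7 were at least 2-fold higher, with 3 at 3 counts or fewer. With at least 10 counts in both libraries 4, 4 and 6 of these genes were left, and the medians were 5.03, 2.66 and 1.14. Other tissue lists did not stand as high. Of 6 epithelial genes tested, 3 were at least 2-fold higher and 1 lower, and the median of 1.44 became 0.24 over the 5 that reached 10 counts in each. Of 4 cartilage and bone genes tested, 1 was at least 2-fold higher and 1 lower, with a median of -0.18. Summed over the hepatocyte list DC control pIUT stood at 785 CPM and DC-depleted pIUT at 2027, against 9157 in DC control mIUT and 14835 in uninjected pups. *Hp*, which neutrophils also make, was 708 and 349 CPM of these sums in the pIUT libraries, 8947 in DC control mIUT and 555 in uninjected pups. By sum DC-depleted pIUT was not the highest recipient library, while by member 8 of the 14 genes were higher in it than in both DC control mIUT and uninjected pups. In the pIUT pair these levels moved with the Kupffer cell, erythroid and progenitor genes above, which in newborn mice are found together in the liver; the part of tissue carried through the sort was not tested.

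The genes lowest in DC-depleted pIUT were mostly of low count and of no common type. *Acod1*, which makes itaconate in activated macrophages and neutrophils, had 1146 counts in DC control and 0 in DC-depleted pIUT, at least 464-fold lower. *Rps12l1* (632 and 0 counts), a copy of a ribosomal protein gene whose reads can fall on its relatives, *Xrra1* (336 and 0) and *Pnpla1* (253 and 0) followed. Of the Y-linked genes, *Eif2s3y* had 1304 and 578 counts, *Ddx3y* 933 and 475, *Uty* 268 and 226 and *Kdm5d* 85 and 148, and *Xist* had 378 and 658 counts. Both kinds of transcript were thus present in each pool. The medians of these lists stood at -0.89 and 0.52, and the part of an unequal sex ratio was not tested.

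Receptor transcripts were counted from the same libraries. MiXCR assembled 5488 clonotypes from 48175 receptor reads in DC control and 3064 from 18579 reads in DC-depleted pIUT. A clonotype is a distinct rearrangement, identified by the CDR3 that spans the V-J junction. Receptor reads made up 1204 and 449 per 1000000 gene counts, against 97.2 in DC control mIUT and 1394 in uninjected pups. Single-read clonotypes were 10.4% and 15.3% of all, and 87.6% and 87.5% of clonotypes were productive. Without molecular identifiers, reads are not independent molecules, and the intervals below cover counting error only.

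The TCR share of the repertoire was smaller in DC-depleted pIUT. TCR chains were 89.2% of clonotypes in DC control (95% Wilson interval 88.3 to 90.0) and 58.4% in DC-depleted pIUT (56.6 to 60.1). The beta chain (TRB) accounted for this difference, with 4101 clonotypes (74.7%) against 1229 (40.1%). Per 1000000 gene counts, TRB reads were 872 in DC control and 145 in DC-depleted pIUT, a ratio of 0.167, and the ratio was 0.362 for the alpha chain (TRA). Over the same libraries the constant region genes *Trbc1* and *Trac* were at 42942 and 12742, and at 4605 and 1830 counts. Gamma chain (TRG) reads were at 37.8 and 39.5 on this scale, a ratio of 1.05, with 135 and 142 clonotypes. Delta chain (TRD) reads were at 45.9 and 28.9, with 196 and 146 clonotypes. The alpha-beta chains were thus fewer while the gamma chain was not.

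**Figure D3:**
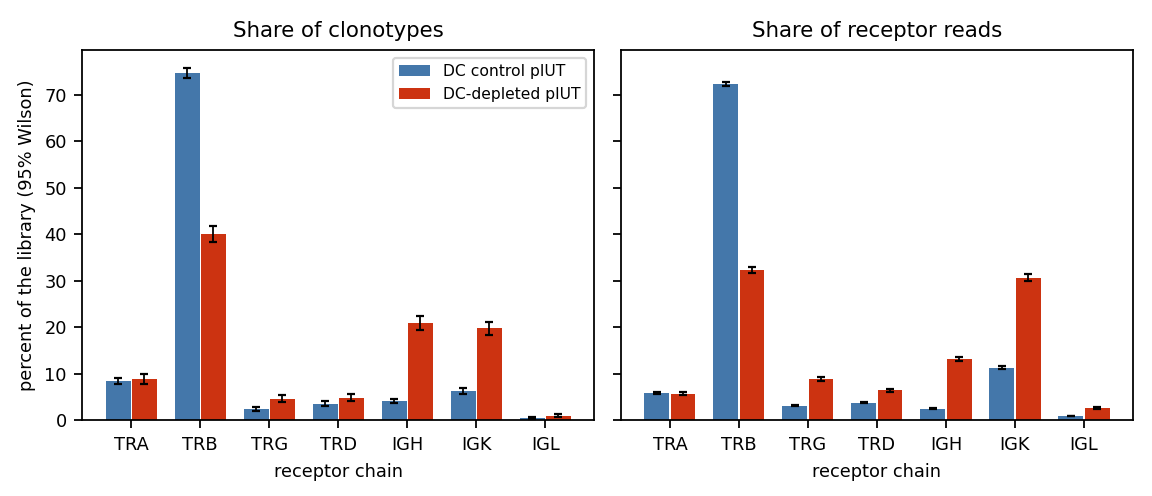
Share of each receptor chain in percent of clonotypes (left) and of receptor reads (right) in DC control and DC-depleted pIUT recipient cells, with 95% Wilson intervals for counting error. TRB was 74.7% of clonotypes in DC control and 40.1% in DC-depleted pIUT, and IGH and IGK had 20.9% and 19.8% in DC-depleted pIUT.

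Immunoglobulin clonotypes were more numerous in DC-depleted pIUT. The heavy chain (IGH) had 227 clonotypes in DC control and 640 in DC-depleted pIUT, 4.14% and 20.9% of all. The kappa chain (IGK) had 341 and 606 clonotypes, but its reads per 1000000 gene counts were 136 and 138. Heavy chain reads were at 30.7 and 59.4 on the same scale. At equal depth of 7123 BCR reads, 593 and 1231 BCR clonotypes were expected, so that the number was also larger at equal depth. Of clonotypes with a constant region, 96.3% and 97.9% of IGH used *Ighm*, that is unswitched IgM.

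Diversity differed by receptor type. The Hill number of order 1, the number of equally abundant clonotypes that gives the same entropy, was 3728 in DC control (95% interval 3697 to 3759) and 1637 in DC-depleted pIUT (1605 to 1669). For TCR chains alone it was 3472 and 932. The BCR chains by themselves gave 330 and 709, in the opposite direction. Drawn to 18579 reads, DC control kept 4736 clonotypes against 3064 in DC-depleted pIUT.

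The 2 largest clonotypes of each library were gamma-delta rearrangements of a nearly germline form, and the third largest of DC-depleted pIUT was a further one. They are shown 5′ to 3′ as the CDR3 nucleotide sequence in lower case. Capitals mark bases that lie between the end of V and the start of J. In the delta chain these can include D bases, so that they do not count added bases:
TRDV4-TRDJ2: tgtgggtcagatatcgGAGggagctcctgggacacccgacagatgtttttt
TRGV6-TRGJ1: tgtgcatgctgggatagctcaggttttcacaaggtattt
TRGV5-TRGJ1: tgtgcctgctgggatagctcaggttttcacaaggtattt

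The delta sequence joins *Trdv4* (chr14:54312362-54312972, GRCm39) to *Trdj2* (chr14:54374236-54374294), and had 464 reads in DC control and 482 in DC-depleted pIUT. The first gamma sequence joins *Trgv6* (chr13:19374526-19375099) to *Trgj1* (chr13:19394513-19394572) with 0 bases between V and J, and had 357 and 469 reads. The second joins *Trgv5* (chr13:19376448-19376895) to the same *Trgj1*, and had 62 and 175 reads. As background, rearrangements of these segments without added bases are the canonical receptors of the first gamma-delta T cells to leave the fetal thymus, which settle in skin and mucosa. The delta clonotype was 25.3% of TRD reads in DC control and 40.3% in DC-depleted pIUT, and the TRGV6 clonotype 23.6% and 28.6% of TRG reads. The same delta CDR3 had 12 reads in DC control mIUT and 400 in uninjected pups, so that it was found in each of the 4 recipient libraries. Of the maternal libraries, DC-depleted pIUT had 13 reads of it and uninjected 121, and the other two had 0. TRDV4 was the V segment of 31.7% of TRD reads in DC control and of 55.8% in DC-depleted pIUT.

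The largest alpha and beta clonotypes were small and were not shared. They are shown, with the same use of capitals, as the most read junction of each chain and library. In the beta chains the capitals take in the D segment (TRBD1 in both), so that they do not count added bases:
TRBV1-TRBJ1-1, DC control pIUT: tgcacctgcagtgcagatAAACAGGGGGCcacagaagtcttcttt
TRBV17-TRBJ2-1, DC-depleted pIUT: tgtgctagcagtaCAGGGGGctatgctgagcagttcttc
TRAV17-TRAJ57, DC control pIUT: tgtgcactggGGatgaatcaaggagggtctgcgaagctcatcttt
TRAV6D-7-TRAJ12, DC-depleted pIUT: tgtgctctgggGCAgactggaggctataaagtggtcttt

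The TRB clonotype of DC control had 51 reads, with 11 bases between V and J, and that of DC-depleted pIUT 31 reads, with 7 bases. The TRA clonotypes had 23 and 16 reads, with 2 and 3 bases. Each had 0 reads in the other of these libraries. No alpha or beta clonotype exceeded 1.51% of the reads of its chain.

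Over all clonotypes, alpha chains in DC-depleted pIUT held fewer bases between V and J. TRA clonotypes with no such base were 40.2% of 463 in DC control (95% Wilson interval 35.8 to 44.7) and 63.1% of 271 in DC-depleted pIUT (57.2 to 68.6), and the intervals did not overlap. With the chain taken from V, which adds delta rearrangements to TRA, the shares were 32.1% and 47.8%. For TRG the shares were 37.8% (30.0 to 46.2) and 49.3% (41.2 to 57.4), with overlapping intervals. For TRB, in which the D segment lies between V and J, they were 3.51% (2.99 to 4.12) and 4.96% (3.88 to 6.32), and the median was 8 and 7 bases. The heavy chain did not differ in the same direction, with 6.17% (3.71 to 10.1) and 4.06% (2.79 to 5.89). In kappa chains, 94.1% and 92.1% of clonotypes had no base between V and J in both libraries. *Dntt*, whose product adds such bases, was 12.1-fold lower in DC-depleted pIUT, and its part in these shares was not tested.

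**Figure D4:**
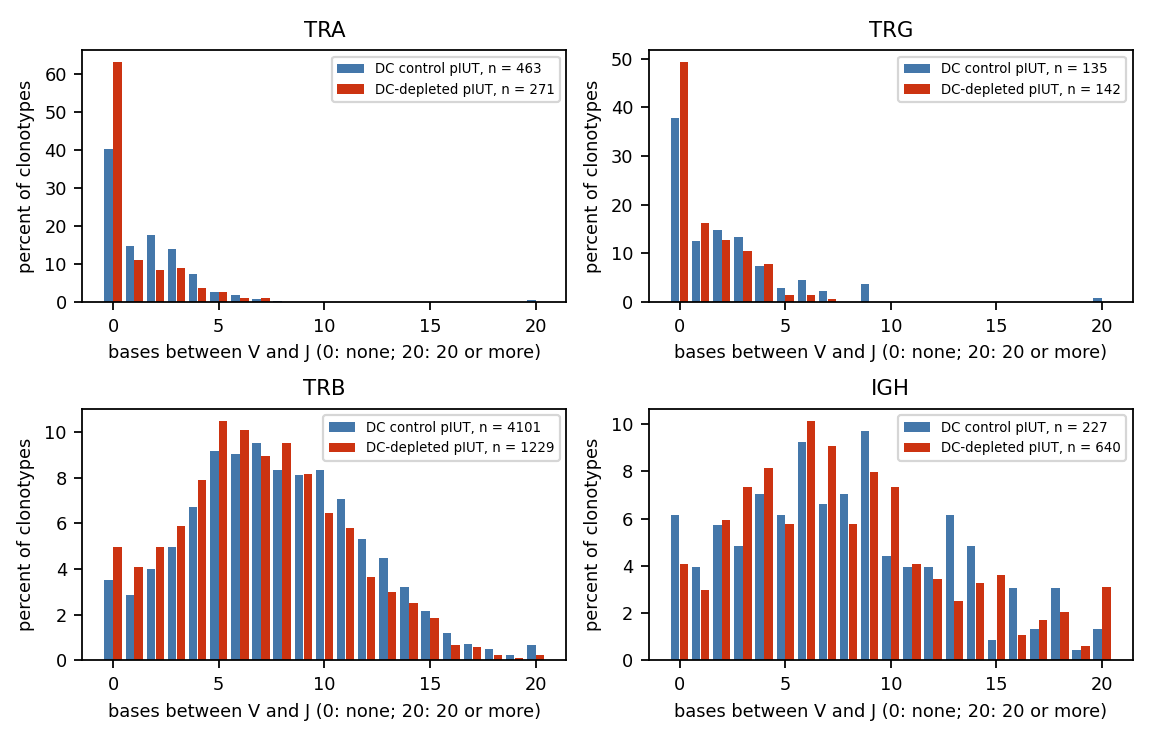
Percent of clonotypes by the number of bases between V and J (0 stands for none, 20 for 20 or more) for TRA, TRG, TRB and IGH in DC control and DC-depleted pIUT recipient cells. The bar at 0 for TRA was 40.2% in DC control and 63.1% in DC-depleted pIUT.

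Most segments were used to a like extent. Of 84 V and J segments that reached 4% of the clonotypes of their chain in a library, 5 had 95% Wilson intervals that did not overlap between the libraries, with no correction for the number compared. By size, 10 of the 84 differed by at least 2-fold, and each of these had 16 clonotypes or fewer in either library. TRGV7 had 1 of 135 TRG clonotypes in DC control and 12 of 142 in DC-depleted pIUT (0.741% and 8.45%), and its intervals did not overlap. IGHV5-6 was used by 6.61% of IGH clonotypes in DC control and by 13.1% in DC-depleted pIUT, also without overlap. The other three were TRB segments, with TRBV14 at 2.93% and 5.21%, TRBV20 at 3.93% and 5.86%, and TRBJ1-6 at 3.63% and 5.61%. Over all 410 segments the intervals of 8 did not overlap. The rest were under 4%. They stood at 3.44% and 1.71% (TRBV4), 0% of 463 and 2.21% of 271 (TRAV7-6) and 3.08% and 0.312% (IGHV3-8). For 0 of 463 the Wilson interval reached up to 0.823%. The most used TRB segments, TRBV13-2 (8.85% and 10.4%) and TRBJ2-7 (17.8% and 17.3%), had overlapping intervals.

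Few clonotypes were common to both libraries. By chain and CDR3 nucleotide sequence, 311 were shared, 5.90% of those in DC control and 10.8% of those in DC-depleted pIUT. Of these, 156 were kappa chains, 49.4% and 27.6% of the kappa sequences of the libraries. For TRB, 72 sequences were shared, 1.79% and 5.93% of each library, and for TRA 6. These 6 were 1.43% and 2.27% of the TRA sequences. The other chains were IGL (12 shared, 48.0% and 40.0%), TRG (24, 21.2% and 19.7%), TRD (22, 11.7% and 15.6%) and IGH (19, 10.3% and 3.55%). Light chains and TRG, in which junctions without bases between V and J were common, thus had the highest shares, TRA had common junctions of this kind and the lowest share, and TRD had few and a share between. Chains differed in depth and clonotype number, and the part of either in sharing was not tested. The lambda sequence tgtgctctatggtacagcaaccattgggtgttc, which joins IGLV1 to IGLJ1 with 0 added bases, was the most read of the shared light chains after IGKV10-96-IGKJ1 and had 147 reads in DC control and 102 in DC-depleted pIUT.

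**Figure D5:**
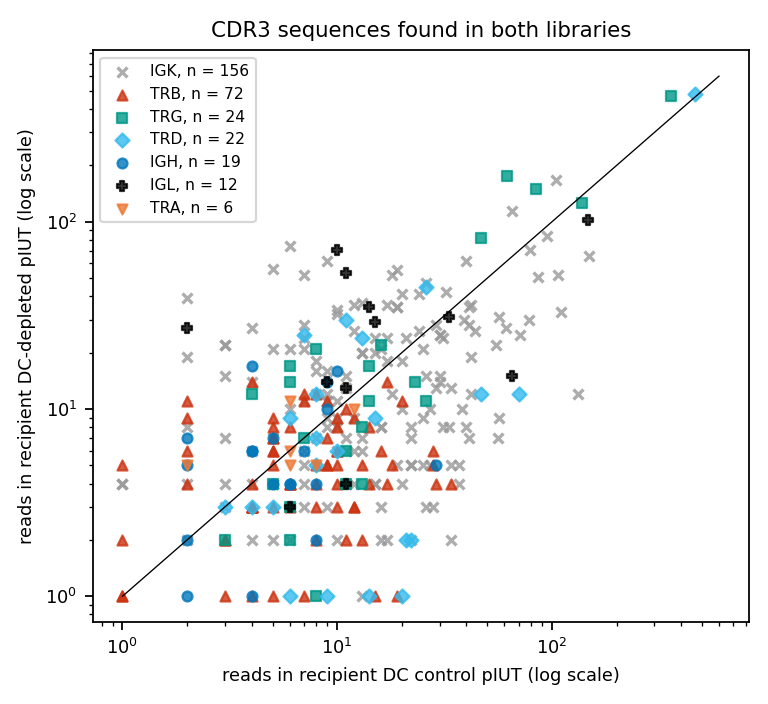
Reads of the 311 CDR3 sequences found in both libraries, in DC control (x axis) and DC-depleted pIUT (y axis), on log scales, by chain, with the line of equal reads. The sequences with the most reads were the TRDV4-TRDJ2 (464 and 482) and TRGV6-TRGJ1 (357 and 469) rearrangements, and IGK gave 156 of the points.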

How the data were processed

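RNA from sorted cells was sequenced in 8 pooled libraries, and 2 are compared here. The authors deposited estimated counts per gene, written by salmon against GRCm39 and not normalized, and MiXCR tables with a clone count, that is the reads assigned to each clonotype. The paper's methods name featureCounts instead, and the deposited values are fractional. They were rounded to whole numbers. Of 52784 genes, 25066 had a count, and 99.05% of these were named from a GENCODE annotation of GRCm39. All 8 count columns belonged to a sample, and 0 were left out.

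Log2 fold changes came from edgeR 4.0.16 in R 4.3.3 (TMM over 8 libraries, dispersion 0.4, prior count 0.125). A gene was tested at 10 counts or more in at least 1 library and called at 2-fold. No p-value was computed. At 3 counts or fewer a gene was treated as not detectable, and the fold is a bound. Intervals are at 95%. The steps were tested on simulated data.

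The named genes are the defining genes of each list, its 2 highest and 2 lowest, and the 15 highest and 15 lowest of the table. Others were chosen from the lists after values were seen. Some list members count in their lists but are not reported here by name. The groups, the 38 lists and the rules were chosen with earlier results of these data known. The chain of a clonotype was taken from its best J segment, since 116 (DC control) and 87 (DC-depleted) delta rearrangements use alpha V segments. Python 3.11.15 was used with pandas 2.3.3, numpy 2.4.6, matplotlib 3.10.9 and scipy 1.17.1. Alternatives were DESeq2 1.42.0 size factors, TMM over the 2 libraries, library size, prior count 5, other count filters, clonotypes of 2 reads or more, productive clonotypes, read weighting and other matches.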

Additional observations from a re-analysis of the deposited data

Results flagged for a closer look

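For 7 lists the median log2 fold change between DC-depleted and DC control pIUT passed 2-fold in opposite directions in recipient cells and in trafficked maternal cells (B6 cells sorted from the same pups), with genes at 3 counts or fewer set to their bounds. The difference was not tested, since each side was 1 library, and the maternal libraries held few receptor clonotypes (32 in DC control and 552 in DC-depleted pIUT). Maternal medians cover the tested genes with over 3 counts in at least 1 maternal library, which were 25 of 26 for T cells, 8 of 10 for early B cells, 8 of 10 for endothelial cells and all of the other 4 lists. With fitted values for every tested gene the maternal medians were -1.12 for endothelial and -1.03 for early B-cell genes. T-cell genes stood at -1.90 in recipient and 2.27 in maternal cells. Thymocyte and recombination genes stood at -2.34 in recipient and 3.71 in maternal cells. Early B-cell genes stood at 1.53 and -1.22, fibroblast genes at 4.84 and -1.61, and endothelial genes at 3.47 and -2.74. Neural genes stood at 1.38 and -4.46, and imprinted genes of fetal growth at 2.83 and -1.69. The primary granule list was higher in both, with 3.74 and 9.87.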

How the results depend on the processing

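The numbers of genes past 2-fold were within 1.5 times of those reported under DESeq2 size factors, TMM over the 2 libraries, library size and a prior count of 5. With at least 10 counts in both libraries they were 1943 higher and 1463 lower, since fewer genes were tested, and with no count filter 3893 were lower. Of the named genes past 2-fold, 101 were higher and 60 of these were left with at least 10 counts in both libraries. No gene or list past 2-fold changed sign. With library size alone, 14 named genes within 2-fold changed sign, 11 dropped below 2-fold and 3 passed it, and the medians of the conventional DC and monocyte lists passed 2-fold (1.18 and 1.19). The mast cell list, at 1.01, was at 1.00 with a prior count of 5, just under 2-fold.

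For shares, values are given for DC control and then DC-depleted pIUT. By reads, TCR chains were 85.2% and 53.3%, and TRB 72.4% and 32.4%. Among productive clonotypes TRB were 77.6% and 43.7%. The Hill number was 3573 and 1499 with a clone count of at least 2, 3320 and 1427 for productive clonotypes, 2010 and 442 at order 2, 3472 and 932 for TCR chains, and 330 and 709 for BCR chains. Numbers of clonotypes at equal depth were 4736 and 3064. Shares of alpha and beta clonotypes without bases between V and J stayed within their intervals by reads, among productive clonotypes and without single-read ones. By reads, those of TRG became 66.3% and 81.1% and those of IGH 9.86% and 5.49%. Shared clonotypes ranged from 250 to 424. Taking the chain from V, chosen after seeing the data, left the TCR and TRB shares within their intervals. It moved TRA from 8.44% and 8.84% of clonotypes to 10.2% and 11.1%, and TRD from 3.57% and 4.77% to 1.79% and 2.48%. Alpha clonotypes without bases between V and J became 32.1% and 47.8%, since delta rearrangements with alpha V segments were counted among them.

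No paired analysis was possible because each group is 1 library, and for the same reason leaving out replicates does not apply. Intervals cover counting error only, and the spread between pups or pools is not known.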
